A study of Homo sapiens with 24 samples.

Results

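Gene expression in control cells of 2 squamous cell carcinoma lines was compared with that in control cells of 3 prostate cancer lines. The control RNA of each array was labelled with Cy3 and hybridised beside treated RNA in Cy5, and the Cy3 channel of 14 of the 24 deposited arrays was used. They are all arrays of these lines on the first of 2 array designs. FaDu, from a squamous carcinoma of the hypopharynx, and SAS, from a squamous carcinoma of the tongue, had 3 arrays each. PC3 had 5 arrays, DU145 had 2 and LNCap had 1. PC3 and DU145 are androgen-independent lines and LNCap is an androgen-sensitive line. Per the labels, the controls of 10 arrays were the control of a transfection with a miRNA or siRNA, 2 (FaDu replicate 3 and SAS replicate 2) had received the vehicle DMSO, and 2 (PC3 replicate 1 and DU145 replicate 1) had received no treatment. The arrays of each line were averaged first, so that every line counted once, and the cell line was the replicate. A tumour line is 1 clone or a few clones of 1 tumour, so the comparison is one of these 5 lines, not of 2 kinds of tumour.

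Stratified squamous epithelium is built on a basal layer in which the transcription factor p63, encoded by TP63, maintains the basal state and KRT5 and KRT14 pair to form the keratin filaments. Suprabasal cells switch to other keratins, cornified envelope proteins and kallikrein proteases. Prostate luminal cells carry instead the simple epithelial keratins KRT8 and KRT18 and make KLK3, the prostate-specific antigen, in response to androgen. Prostate cancer lines differ among themselves in how much of this androgen programme they keep.

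A level below is the log2 of the Cy3 signal over the 75th percentile of the same array, so 0 is a fairly bright probe and values near -7 lie at the background. A gene was read from its brightest tested probe, and a gene was called apart where both squamous lines lay at least 1 log2 unit above, or below, all 3 prostate lines. The width between the nearest lines of the 2 sides is called the gap. Of 15659 genes tested, 332 were apart and higher in the squamous lines (2.12%) and 361 were apart and lower (2.31%). With 2 lines against 3 there are 10 arrangements of the lines, so an exact two-sided permutation test of a single gene cannot go below p = 0.1. Limma on the 5 line means called 9 genes higher (0.0575%) and 1 lower (0.00639%) at a Benjamini-Hochberg adjusted p under 0.05, against 1211 genes at an unadjusted p under 0.05. The genes called higher were KRT5, KRT17, KLK6, IGFL1, LY6D, CCND2, ASCL2, CAGE1 and H1-1, and the gene called lower was ZNF215. Limma called 0 genes without DU145 replicate 2 (1279 at an unadjusted p under 0.05) and 0 without any of the 5 lines (795 to 1376), and 1 without SAS replicate 2. LY6D, ASCL2 and CAGE1 fall outside the rule for named genes and are listed only to account for these calls.

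The promoters of 3 genes of the higher side and 3 of the lower side are printed because these genes are among those that separate the lines most widely in their lists. Each window runs from 250 bases before to 50 bases after the RefSeq start of the gene (GRCh38.p14) and is written 5′ to 3′ along the gene, with CG dinucleotides, the sites of cytosine methylation, in capitals. KRT5 (chr12:52520345-52520644, minus strand) and DSG3 (chr18:31447491-31447790, plus strand) hold 7 and 6 of them, KLK6 (chr19:50969542-50969841, minus strand) holds 15, ZNF667-AS1 (chr19:56477624-56477923, plus strand) 24, ZNF671 (chr19:57727575-57727874, minus strand) 11 and ZSCAN18 (chr19:58118355-58118654, minus strand) 36.
KRT5: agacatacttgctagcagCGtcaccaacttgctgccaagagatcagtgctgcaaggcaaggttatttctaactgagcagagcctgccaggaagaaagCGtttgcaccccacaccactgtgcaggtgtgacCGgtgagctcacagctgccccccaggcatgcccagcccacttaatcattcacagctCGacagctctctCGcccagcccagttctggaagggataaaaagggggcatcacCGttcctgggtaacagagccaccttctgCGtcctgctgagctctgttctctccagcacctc
DSG3: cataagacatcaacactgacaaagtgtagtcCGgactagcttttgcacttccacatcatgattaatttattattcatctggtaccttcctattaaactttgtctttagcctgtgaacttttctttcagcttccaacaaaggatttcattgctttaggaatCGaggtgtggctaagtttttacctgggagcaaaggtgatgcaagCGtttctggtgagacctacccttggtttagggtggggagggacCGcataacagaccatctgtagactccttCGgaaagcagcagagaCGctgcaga
KLK6: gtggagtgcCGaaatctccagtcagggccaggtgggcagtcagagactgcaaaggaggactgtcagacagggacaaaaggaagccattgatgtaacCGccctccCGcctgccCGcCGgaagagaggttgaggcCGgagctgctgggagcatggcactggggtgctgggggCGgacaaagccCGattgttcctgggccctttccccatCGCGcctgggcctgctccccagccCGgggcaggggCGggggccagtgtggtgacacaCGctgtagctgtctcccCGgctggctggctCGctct
ZNF667-AS1: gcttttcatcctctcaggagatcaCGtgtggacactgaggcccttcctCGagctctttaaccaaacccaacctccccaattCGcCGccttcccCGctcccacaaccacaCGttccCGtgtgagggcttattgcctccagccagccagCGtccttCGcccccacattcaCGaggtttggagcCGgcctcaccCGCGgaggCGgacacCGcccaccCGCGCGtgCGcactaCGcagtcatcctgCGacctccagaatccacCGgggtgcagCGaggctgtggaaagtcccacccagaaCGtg
ZNF671: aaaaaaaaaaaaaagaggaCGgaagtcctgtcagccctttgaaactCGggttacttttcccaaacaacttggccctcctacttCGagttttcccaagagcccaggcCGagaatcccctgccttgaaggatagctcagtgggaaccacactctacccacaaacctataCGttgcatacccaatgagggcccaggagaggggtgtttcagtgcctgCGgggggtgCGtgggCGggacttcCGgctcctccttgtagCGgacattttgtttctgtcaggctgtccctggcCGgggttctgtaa
ZSCAN18: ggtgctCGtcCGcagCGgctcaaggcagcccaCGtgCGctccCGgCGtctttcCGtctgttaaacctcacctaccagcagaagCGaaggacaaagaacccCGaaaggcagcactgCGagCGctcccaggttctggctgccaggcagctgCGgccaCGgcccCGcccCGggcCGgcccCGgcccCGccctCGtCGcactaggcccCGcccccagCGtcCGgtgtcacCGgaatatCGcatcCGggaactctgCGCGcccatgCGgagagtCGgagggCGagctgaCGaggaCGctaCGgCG

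RefSeq promoter windows of this kind were at hand for 12230 of the 15659 genes tested, for 223 of the 332 higher genes and for 283 of the 361 lower genes. The median number of CG dinucleotides was 25 over all tested genes, with quartiles of 15 and 33. It was 19 over the higher genes, with quartiles of 5.5 and 31.5, and 24 over the lower genes, with quartiles of 14 and 34. The letters TATAAA, on either strand, stood in 7.02% of all tested promoters, in 13.5% of those of the higher genes and in 7.07% of those of the lower genes. The letters TGANTCA, the core that AP-1 factors bind, stood in 5.03%, 10.8% and 3.89%. The letters GGGCGG, the core that SP1 binds, stood in 66.4%, 58.7% and 70.7%. The 3 motifs do not overlap by their letters, and a match is only a description of the window. None of the 6 printed windows holds TATAAA or TGANTCA, and those of KLK6, ZNF667-AS1, ZNF671 and ZSCAN18 hold GGGCGG.

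Between 55.0% and 67.6% of the non-control spots of an array were well above background, with 55.0% to 63.0% on the squamous arrays and 56.5% to 67.6% on the prostate arrays. Over 17277 probes well above background on all 14 arrays, the SD of the difference between arrays of 1 line was 0.36 to 0.70, against 0.94 to 1.31 between arrays of the 2 sides. Lines of the same side differed by as much, with SDs of 0.84 to 1.31. PC3 replicates 3, 4 and 5 differed by an SD of only 0.19 to 0.20. This was less than for any other pair of arrays of 1 line, and they may be repeats of 1 RNA. The PC3 mean weights all 5 arrays equally, and averaging the 3 first, so that they count as 1 sample, gave 333 higher and 357 lower genes apart in place of 332 and 361. Over the 15659 genes FaDu and SAS correlated at r = 0.92, and LNCap, with its single array, at 0.76 to 0.78 with every other line. DU145 correlated at 0.87 with FaDu, with SAS and with PC3, so it was no closer to PC3 than to the squamous lines. PC3 correlated at 0.84 with FaDu and 0.85 with SAS.

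Both marker genes of squamous cells separated the sides. TP63 lay at -2.01 ± 0.17 in FaDu and -2.84 ± 1.31 in SAS (SD over 3 arrays each), and at -6.69 in PC3, -7.74 in DU145 and -6.85 in LNCap. It was well above background on 5 of 6 squamous arrays and on no prostate array, with a difference of 4.66 ± 0.53 (SE, 5 lines, limma adjusted p = 0.11), at least 12.2-fold. KRT5 lay at 5.47 ± 0.44 in FaDu and 3.65 ± 1.24 in SAS, against -6.76 in PC3, -7.53 in DU145 and -7.03 in LNCap. The difference between the sides was 11.67 ± 0.67 (SE, 5 lines, limma adjusted p = 0.044), at least 1546-fold, with the widest gap of all genes tested, 10.4 log2 units. After normexp background correction with quantile normalization the differences were 6.72 for KRT5 and 1.05 for TP63 (limma adjusted p = 0.11 and 0.41). Both folds are bounds for the deposited signal only. The KRT5 probe lies on chromosome 12 from 52908622 to 52908681 and the TP63 probe on chromosome 3 from 189586433 to 189586492 (hg19). The sides did not overlap on any array for either gene, since the lowest squamous array was at 2.31 for KRT5 and -4.33 for TP63 and the highest prostate array at -6.56 and -6.17. These lowest values were both on SAS replicate 3, whose levels of KRT14, KRT17 and DSG3 were also the lowest of the squamous arrays.

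**Figure D1:**
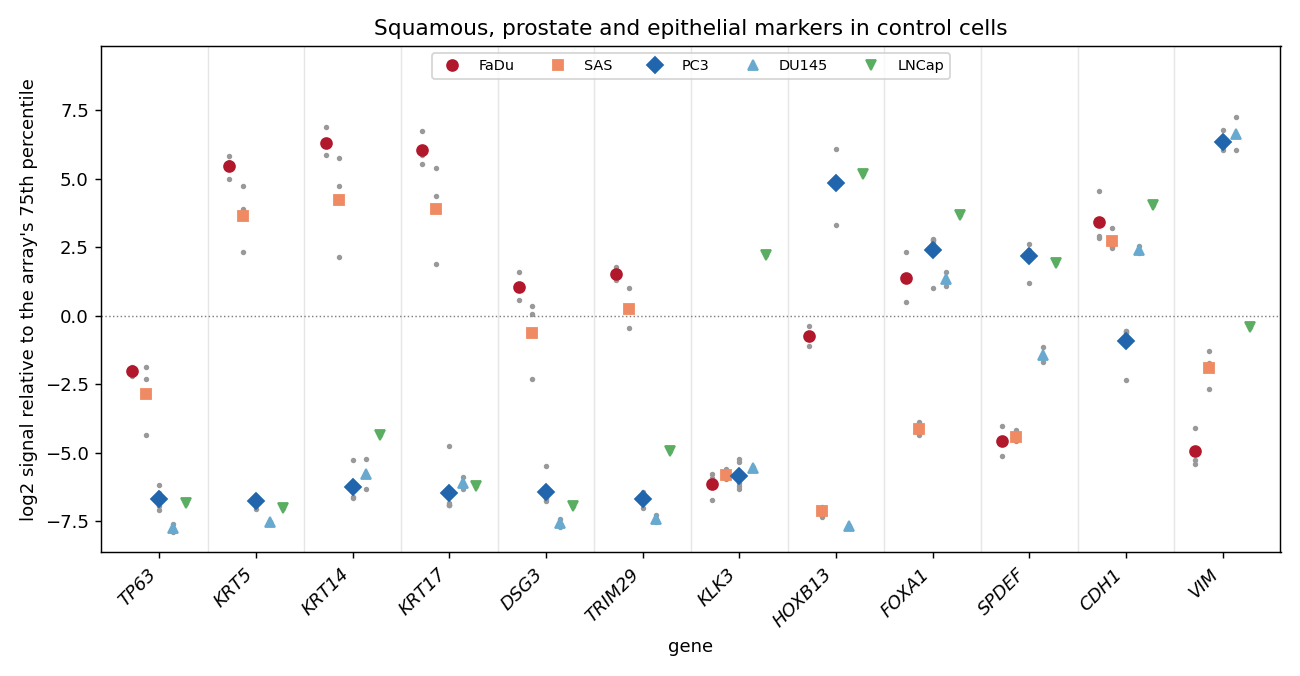
Levels of squamous, prostate and epithelial marker genes in control cells, as log2 signal relative to the array's 75th percentile (y axis) by gene (x axis). Coloured symbols are line means (FaDu, SAS, PC3, DU145, LNCap) and grey points single arrays, and TP63 and the basal keratins stand apart between the sides while KLK3 is high in LNCap alone.

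Of the 32 tested prostate luminal and androgen-responsive genes 7 had a positive difference, with a median of -1.65, and 3 defining markers of the luminal cell are given here. KLK3 was at 2.21 in LNCap and between -6.14 and -5.56 in the other lines. HOXB13, a homeobox factor of the adult prostate, was at 5.18 in LNCap and 4.83 in PC3 but at -7.68 in DU145, near SAS at -7.12, while FaDu lay at -0.73. FOXA1, a pioneer factor that opens chromatin in luminal cells, was at 3.69 in LNCap, 2.40 in PC3, 1.34 in DU145 and 1.38 in FaDu, and was low only in SAS at -4.13. None of these 3 genes was apart, and their limma adjusted p values ran from 0.70 to 0.84. The label prostate stands here for the origin of the lines, since KLK3 lay near the background in PC3 and DU145.

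The squamous list carried the largest share of higher genes of the 13 gene lists examined. Of the 29 tested squamous and basal epithelial markers, 17 were apart and higher and 0 lower, against 2.12% and 2.31% of all genes. The median difference was 3.87 log2 units, beside -0.06 over all genes tested, and 28 of 29 differences were positive. The lists were drawn up with earlier results on these arrays known, and the counts describe them. KRT17, a keratin of activated and basal keratinocytes, lay at 6.04 in FaDu and 3.88 in SAS against -6.45, -6.09 and -6.21 in PC3, DU145 and LNCap (limma adjusted p = 0.044). KRT14, the partner of KRT5, lay at 6.31 and 4.21 against -6.24, -5.79 and -4.34 (adjusted p = 0.07). DSG3, a desmosomal cadherin of the basal layers, lay at 1.06 and -0.63 against -6.44, -7.56 and -6.92 (adjusted p = 0.08). TRIM29, a basal cell protein, lay at 1.52 and 0.25 against -6.67, -7.40 and -4.92, which is at least 96.5-fold. In all 4 genes every squamous array was above every prostate array. The other 11 apart genes of the list, with TP63 and KRT5 already given, include FAT2, KRT6A, KRT6B, KRT6C, KRT16, KRT15, SERPINB13, S100A2 and PERP, with gaps from 1.13 (PERP) to 3.75 (FAT2). KRT6A, KRT6B and KRT6C are near-identical copies, as are parts of KRT14, KRT16 and KRT17, so signal may be shared between their probes. The 12 members not apart include SOX2, SFN, CDH3, TFAP2A and TFAP2C.

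The keratinocyte differentiation list had 9 of 32 tested genes apart and higher (28.1%, against 2.12% of all genes) and 0 lower. The median difference was 1.89. KLK6, a kallikrein protease of squamous epithelium, lay at 4.22 in FaDu and 5.26 in SAS against -4.23, -4.64 and -5.75 (adjusted p = 0.044). CSTA, the cystatin of the cornified envelope, lay at 2.73 and 0.83 against -6.79, -7.17 and -4.55 (adjusted p = 0.14). KLK13 lay at -1.95 and -3.14 with no prostate array well above background, at least 11.2-fold higher. SAS replicate 3 was at -6.65 for KLK13, near the highest prostate array at -6.67, and without it the difference was 5.49 in place of 4.61 (limma adjusted p = 0.042). KLK5, which starts the kallikrein cascade of the skin, lay at 3.01 and 1.62 against -5.64 in PC3, -6.05 in DU145 and -1.75 in LNCap (adjusted p = 0.37). ZNF750, a factor of terminal differentiation, lay at -1.28 and -3.57 and was at least 11.7-fold higher, with SAS replicate 3 at -6.14 and a difference of 4.92 without it in place of 4.28. S100A7, S100A9, KRT13 and PPL were also apart. The 23 that were not include the small proline-rich genes SPRR1A, SPRR1B, SPRR2D and SPRR3, the transglutaminases TGM1 and TGM3, KRT4 and KRT10.

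The hemidesmosome fastens the basal layer to its membrane. The list of 20 hemidesmosome, laminin and integrin genes had 3 apart and higher (15%, against 2.12% of all genes) and 0 lower. The median difference was 0.38. ITGB6, the epithelial integrin subunit, lay at -4.03 and -4.26 and was at least 3.71-fold higher. COL17A1, a hemidesmosomal collagen, lay at 0.91 and -1.20 against -6.63 in PC3, -2.91 in DU145 and -7.16 in LNCap (adjusted p = 0.50). On single arrays its sides overlapped, with SAS replicate 3 at -2.60 below DU145 replicate 2 at -1.92. ITGB4, the hemidesmosomal integrin subunit, lay at 4.24 and 4.86 against 2.81, 2.22 and -3.03 (adjusted p = 0.71). The laminin genes LAMA3 and LAMB3 and the ITGA6 subunit were not apart.

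**Figure D2:**
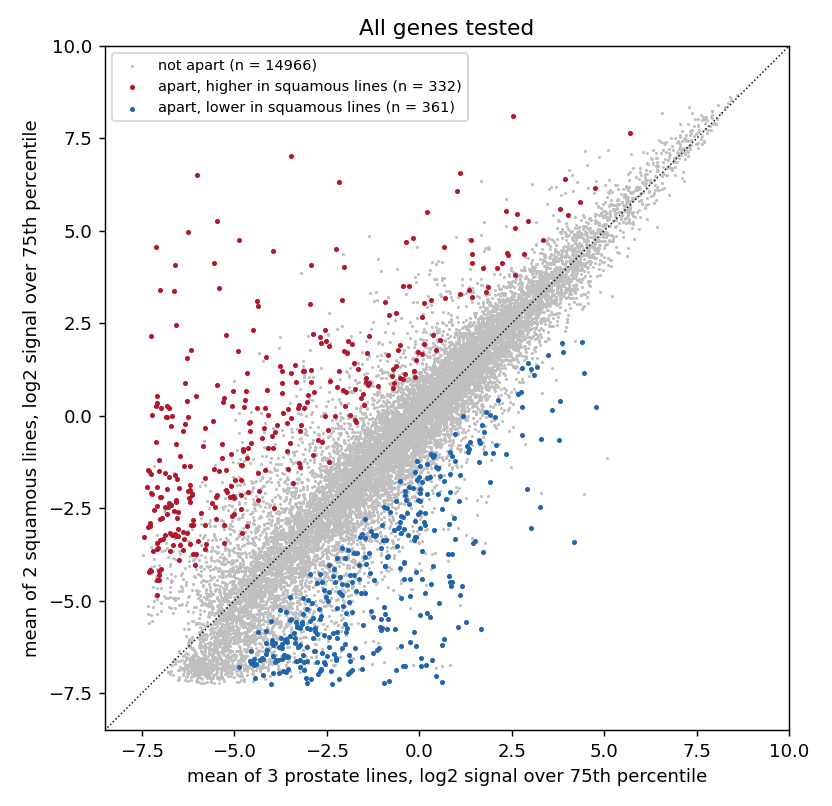
Mean level of each of the 15659 genes tested in the 3 prostate lines (x axis) and in the 2 squamous lines (y axis), as log2 signal over the 75th percentile. Red points are the 332 genes at least 1 log2 unit higher in both squamous lines than in all prostate lines, blue points the 361 lower ones, and the dotted line marks equal levels.

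Outside these lists, the widest gaps on the higher side belonged to genes of several kinds. H19, an imprinted non-coding RNA, was at 5.51 ± 1.93 in FaDu and 7.51 ± 1.5 in SAS (SD over 3 arrays each) against -6.66, -4.43 and -6.96 in PC3, DU145 and LNCap, with a gap of 9.94 (adjusted p = 0.07). H1-1, a linker histone gene, was at 4.23 and 2.55 and at least 687-fold higher (adjusted p = 0.044). IGFL1, a secreted protein of the IGF-like family, was at 2.30 and 2.62 and at least 314-fold higher (adjusted p = 0.044). CCND2, cyclin D2, was at 2.89 and 1.41 and at least 291-fold higher (adjusted p = 0.044). These 3 had no prostate array well above background. IGFBP7, an IGF-binding protein of the extracellular matrix, was at 2.72 in FaDu and 5.45 in SAS against -6.90, -5.72 and -7.17. UCA1, a long non-coding RNA first described in bladder cancer, was at 2.99 and 5.28 against -6.06, -5.72 and -4.87. ANXA8L1 was at 6.93 and 7.13 against -5.33, -0.74 and -4.30, and its probe cannot be told from the near-identical ANXA8. KRT42P, a keratin pseudogene, was at 4.55 and 2.18, but its other tested probe gave a difference of only 1.70 log2 units between the sides, and expressed keratins share much of its sequence.

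On the lower side the gaps were narrower, with 10 genes at 5 log2 units or more against 30 on the higher side. ZNF667-AS1, an antisense RNA beside the zinc finger gene ZNF667, was at -7.25 in FaDu and -7.13 in SAS against 0.21, -0.62 and 2.29 in PC3, DU145 and LNCap. It was at least 80.6-fold lower in the squamous lines, with the widest gap of the lower side at 6.52 (adjusted p = 0.11). ZNF667 itself, added after its values were seen, was not apart, at -0.91 and -1.56 against -0.06, -0.81 and -0.12. ZNF215, a zinc finger gene of the imprinted region of chromosome 11, was at -7.27 and -7.18 against -0.90, -0.88 and -1.03 a difference of -6.29 ± 0.34 (SE) and at least 27.2-fold (limma adjusted p = 0.044). Its 3 prostate lines spanned 0.16 log2 units in the means. MESP1, a mesoderm transcription factor, was at -5.50 and -6.03 against 1.18, 0.57 and 3.23 (adjusted p = 0.11). GSTA4, a glutathione transferase that clears lipid peroxidation products, was at -5.83 and -5.32 against 1.56, 0.14 and 2.06 (adjusted p = 0.08). SLC4A4, a sodium bicarbonate cotransporter, was at -7.07 and -6.99 against -2.14, 0.73 and 2.81 and was at least 72.0-fold lower (adjusted p = 0.31).

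The remaining widely separated lower genes were ANKRD29, LONRF2, PPP1R9A, CGREF1, ENPP4, ZSCAN18 and ZNF671, with gaps from 4.98 (ZNF671) to 5.81 (ANKRD29). PPP1R9A, which encodes the actin-binding protein neurabin, was at -7.20 and -7.12 against -0.68, -0.24 and -1.49. ENPP4, a phosphodiesterase of the cell surface, was at -5.48 and -6.58 against -0.19, 0.95 and 1.27 and was at least 73.2-fold lower. LONRF2 was at -4.16 on FaDu replicate 1 and between -7.30 and -6.70 on the other squamous arrays, and its tested probes differed by -6.59 and -2.92. The probes of CGREF1 differed by -6.80 and -1.12 and those of ZNF671 by -6.36 and -2.90, all in the same direction.

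**Figure D3:**
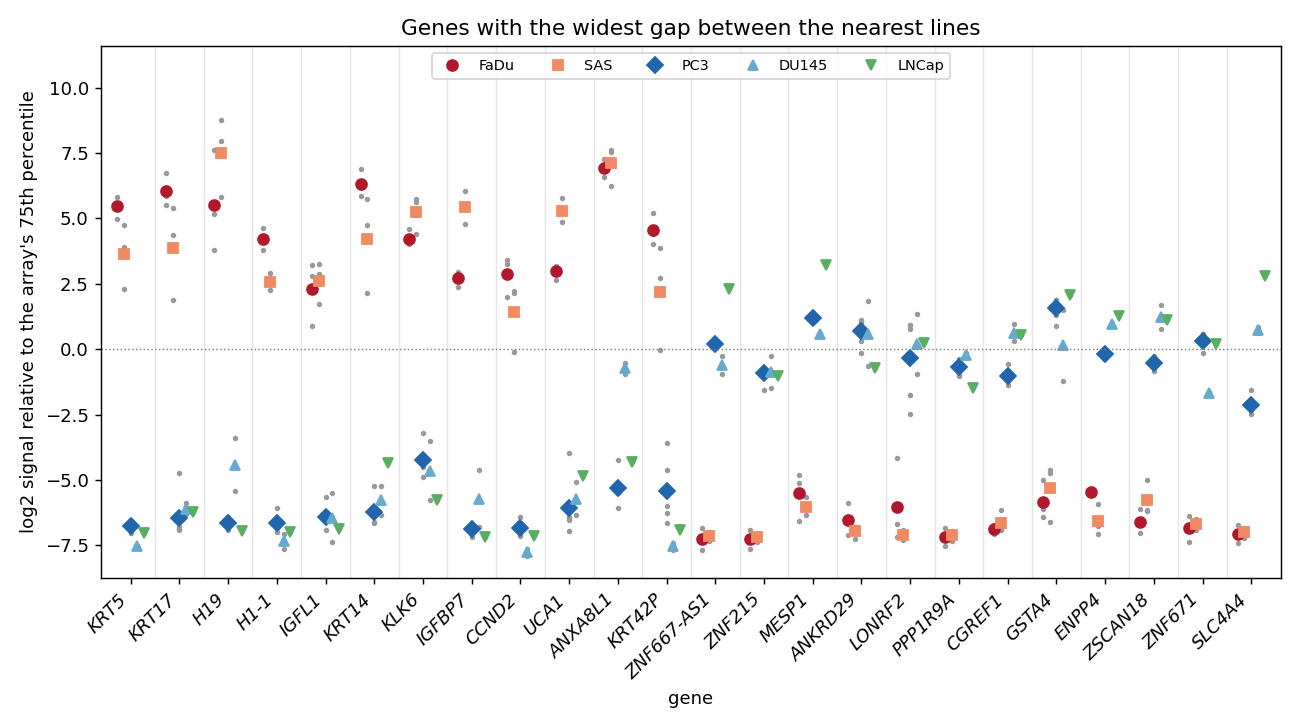
Levels of the 12 genes with the widest gap between the nearest lines in each direction (x axis), as log2 signal relative to the array's 75th percentile (y axis). Coloured symbols are line means and grey points single arrays, the first 12 genes are higher in FaDu and SAS and the last 12 lower, with gaps from 10.4 for KRT5 to 4.85 for SLC4A4.

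Zinc finger genes recurred on the lower side, a group that was picked after the values were seen and has no test. Of 532 tested genes with a ZNF, ZSCAN, ZFP, ZKSCAN or ZIM symbol, 28 were apart and lower (5.26%) and 3 apart and higher, against 2.31% and 2.12% of all genes. Many of these genes encode KRAB zinc finger proteins, repressors that bind DNA and silence retroelements. The group's median difference was -0.51, beside -0.06 over all genes tested. A gene could pass the filter through prostate lines alone. Of the 532, 57 had no squamous array well above background and 1 had no prostate array, against 1086 and 137 over all genes tested. Such genes tend to a negative difference by this choice, so the median is in part set by the filter. The 28 include 1 antisense RNA (ZNF667-AS1) and 3 pseudogenes (ZNF788P, ZNF815P and ZNF818P). In 19 of the 28 no squamous array was well above background, and there FaDu and SAS lay between -7.29 and -5.53. All 28 kept this order on each of the 2 slides taken alone, but these are the arrays that chose them, so this is no separate check. Slide 1 held 1 squamous array, FaDu replicate 1, and slide 2 held PC3 alone of the prostate lines.

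Chromosome 19 held 19 of the 28. Of the 246 tested zinc finger genes on that chromosome 7.72% were apart and lower and 0 higher, with a median difference of -0.88. Of the 286 elsewhere, 9 were lower (3.15%) and 3 higher (1.05%), with a median difference of -0.10. The other 898 genes of chromosome 19 had 29 lower (3.23%) and 23 higher (2.56%), against 2.31% and 2.12% of all genes. From the ZNF880 probe at 52877906 (hg19) to the end of chromosome 19, 167 genes were tested, of which 15 were apart and lower and 0 higher. The stretch was set to begin at ZNF880, which is itself among the 28. Of the 92 zinc finger genes in that stretch, 11 were apart and lower and 79 had a negative difference. The sign was not particular to the stretch, since only 26 of the 246 on the whole chromosome had a positive difference. Over all 15659 genes tested, 7277 had one. Of the 246, 38 had no squamous array well above background and 0 had no prostate array, so these signs too are in part set by the filter. ZNF880 itself was at -6.99 and -6.75 against -2.67, 0.06 and 0.69 in PC3, DU145 and LNCap. ZNF347 (53643573 to 53643632) was at -7.00 and -6.85 against -1.78, -2.31 and -1.50. ZNF671 (58231236 to 58231295) was at -6.83 and -6.67 against 0.32, -1.69 and 0.21 and ZSCAN18 (58595379 to 58595438) at -6.60 and -5.78 against -0.52, 1.24 and 1.12. In these 4 genes the squamous lines sat near the background and the prostate lines varied by 0.81 to 3.36 log2 units among themselves. On chromosome 22 the neighbours ZNF280A and ZNF280B were both lower, and on chromosome 11 ZNF214 was lower beside ZNF215, at -7.29 and -7.18 against -3.30, -4.81 and -3.93. The promoters of 22 of the 28 genes were at hand, with a median of 23 CG dinucleotides, against 22 in 436 tested zinc finger genes.

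**Figure D4:**
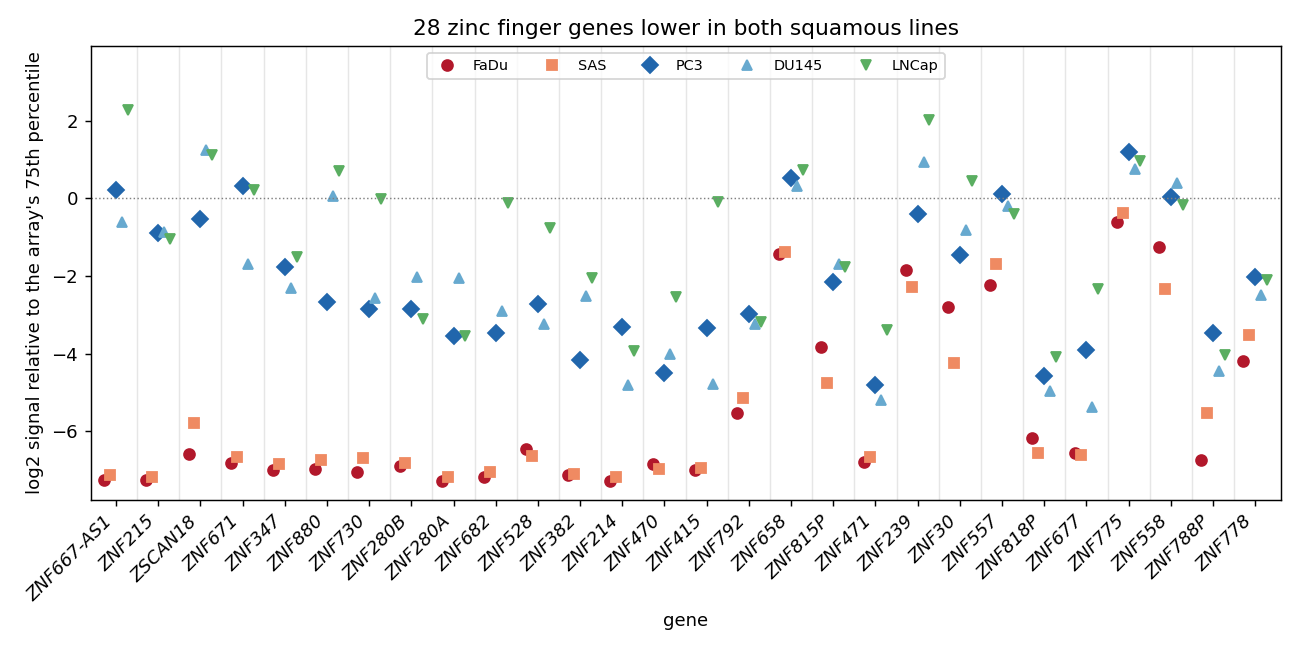
Line means of the 28 zinc finger genes that were lower in both squamous lines (x axis, ordered by gap), as log2 signal relative to the array's 75th percentile (y axis). Red and orange symbols (FaDu, SAS) lie at -5.53 or below in the 19 genes without a squamous array well above background, and the blue and green symbols (PC3, DU145, LNCap) lie above them.

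Among the prostate luminal and androgen-responsive genes, 2 of 32 tested were apart and lower in the squamous lines and 2 apart and higher. Each is 6.25% of the list, against 2.31% lower and 2.12% higher of all genes. SPDEF, an ETS factor of luminal secretory cells, was at -4.58 in FaDu and -4.41 in SAS against 2.17, -1.42 and 1.93 in PC3, DU145 and LNCap (adjusted p = 0.39). STEAP1, named for the prostate, was at -1.23 and 0.21 against 1.86, 1.35 and 5.11 (adjusted p = 0.66). On single arrays its sides overlapped, with SAS replicate 3 at 1.74 above DU145 replicate 1 at 1.35. The higher pair were the simple epithelial keratins of the list. KRT8 was at 5.08 and 5.06 in the squamous lines against 1.63, 3.87 and 2.31, and its partner KRT18 at 7.74 and 7.58 against 5.09, 6.57 and 5.41. Another of the 3 tested KRT8 probes gave a difference of only 0.08, and 0 genes of the list were apart and higher with quantile normalization or in the treated channel. The gap of KRT18, 1.003, was the narrowest of all genes counted as higher, and VAV2 at 0.999 was the first one outside. On the lower side ZSWIM5 at 1.004 was just inside and NEURL3 at 0.995 just outside.

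Of 26 simple epithelial and junction genes, 2 were apart and higher and 2 lower. Each is 7.69% of the list, against 2.12% higher and 2.31% lower of all genes. VIM, the intermediate filament of mesenchymal cells, was at 6.32 in PC3 and 6.64 in DU145 but at -0.40 in LNCap, and at -4.93 in FaDu and -1.90 in SAS (adjusted p = 0.58). CLDN3, a tight junction claudin, was at -1.06 and -3.86 in the squamous lines against 2.74, 3.14 and 3.93 (adjusted p = 0.23). CLDN1, another claudin, ran the other way at 0.77 and 3.66 against -0.84, -0.78 and -7.00 (adjusted p = 0.69). ESRP1, an epithelial splicing regulator, was at 1.64 and 0.21 against -5.08, -2.32 and -1.38 (adjusted p = 0.57). CDH1, the cadherin of epithelial junctions, was not apart, at 3.43 and 2.73 against -0.94 in PC3, 2.42 in DU145 and 4.03 in LNCap.

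The other fixed lists had 0 to 4 genes apart in a direction, to be read beside 2.12% higher and 2.31% lower of all genes. The shares were 11.8% higher for HOX, 7.69% each way for ERBB, and 10% higher and 6.67% lower for NOTCH and WNT. Of 34 HOX cluster genes, which set position along the body axis, 4 were higher and 0 lower, with HOXD10 at -1.59 and 1.52 and no prostate array well above background (at least 63.9-fold), and HOXD13, HOXD11 and HOXA7 with gaps of 2.63, 2.34 and 2.23. On the slide with FaDu replicate 1 the HOXD11 difference was only 0.28. That array, at -7.10 for HOXD11, lay below PC3 replicate 5 at -6.79. Of 13 ERBB receptors and ligands, the receptor EGFR was higher at 1.37 and 1.92 against -0.52, -0.03 and -1.99 (adjusted p = 0.50), and the ligand EGF was lower with no squamous array well above background (at least 2.78-fold). With transfected controls only, 0 genes of the list were apart in either direction, and 0 were apart and higher in the treated channel. EGF was lost after normexp and with values raised to the lowest level well above background. On single arrays its sides met, with SAS replicate 1 at -5.97 and DU145 replicate 2 at -5.98. Of 30 NOTCH and WNT genes, 3 were higher and 2 lower. The WNT receptor FZD10 was at 1.19 and -0.41 against -6.32, -5.39 and -7.14 (adjusted p = 0.11), the NOTCH ligand DLL1 and the ligand WNT10A had gaps of 2.58 and 2.48, and AXIN2, a feedback target of WNT signalling, was at least 5.97-fold lower. WNT5A was lower too, at -4.41 and -6.89 against 1.53, -3.14 and -2.97, but on slide 1 its sides overlapped, with FaDu replicate 1 at -2.90 above LNCap, and the difference was -1.19 there and -7.93 on slide 2. None of the list was apart and lower after normexp or in the treated channel.

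Of 32 interferon and MHC class I genes 4 were lower (12.5%, against 2.31% of all genes) and 0 higher, with a median difference of 0.05. The exonuclease ISG20 was at 2.17 and 1.26 against 4.04, 3.79 and 3.85 (adjusted p = 0.31). The RNA sensors OAS1 and OAS2 and the interferon-inducible IFI6 had gaps of 1.30, 1.43 and 1.25. The OAS1 difference was -3.75 on the first slide and -0.45 on the second. On single arrays the OAS1 sides overlapped, with SAS replicate 3 at -3.62 above PC3 replicate 5 at -3.98. With the slide effect subtracted, and after normexp background correction, only 1 of the list's genes stayed apart and lower. ISG15, MX1, B2M and the HLA genes were not apart. Of 25 NRF2 targets, which answer oxidative stress, only the carbonyl reductase CBR1 was apart, lower at 0.69 and -0.20 against 2.80, 3.52 and 2.04. That is 4% of the list, against 2.31% of all genes.

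**Figure D5:**
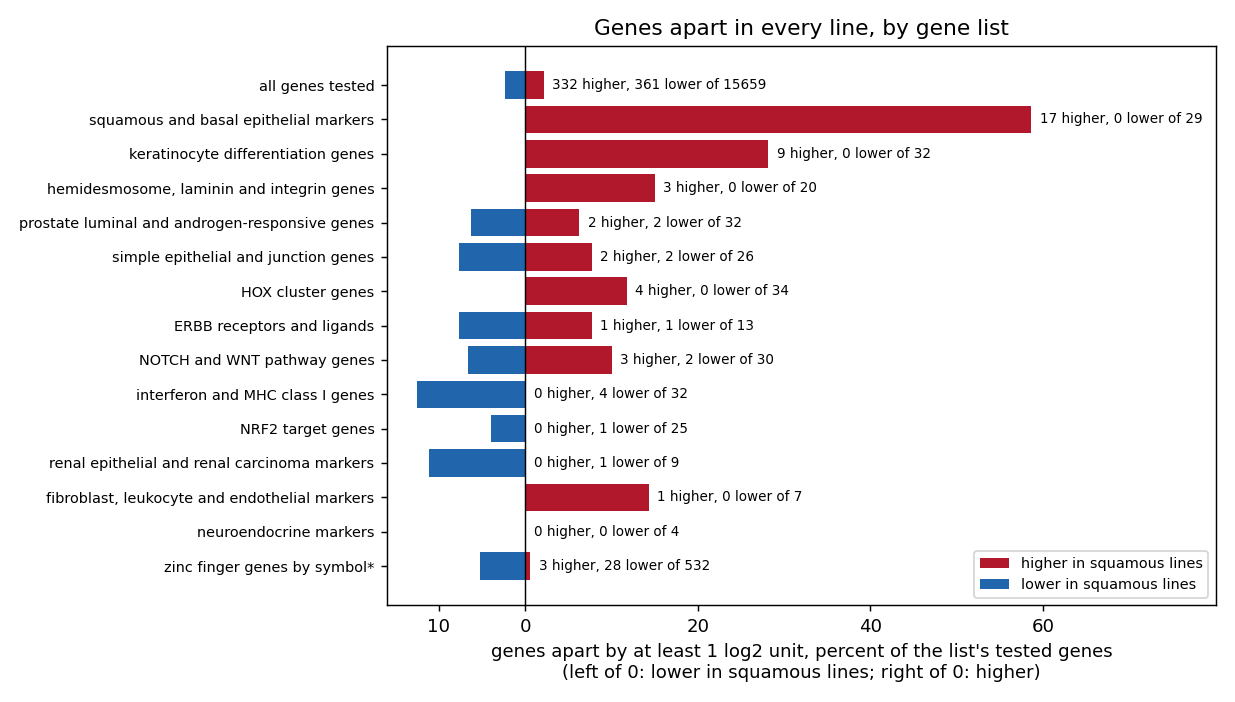
Share of each list's tested genes that were apart by at least 1 log2 unit (x axis, percent), to the right of 0 for genes higher and to the left for genes lower in both squamous lines. The top bars give all 15659 genes tested, the squamous and basal list stands out with 17 of 29 higher, and the zinc finger list with the asterisk was chosen after its values were seen.

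Some markers of other cell types were well above background on every array and others on none. Those on every array were CD14, CDH5, the neuroendocrine marker ENO2, and the renal markers LRP2, UMOD, EPAS1 and GGT1. Of 16 fibroblast, leukocyte and endothelial markers on the array, 6 were above background nowhere (COL1A2, COL3A1, DCN, PDGFRB, THY1 and CD3E), and their summed level, in units of the 75th percentile, was 1.40 to 3.85 on squamous and 0.383 to 2.66 on prostate arrays. CD14 was the only one of the 7 tested that was apart (14.3%, against 2.12% of all genes), higher at -0.30 and 1.03 against -3.70, -2.40 and -3.00. Of 12 neuroendocrine markers 6 were above background nowhere, CHGA and CHGB among them, and 0 of 4 tested were apart, with a summed level of 0.430 to 0.996 on squamous and 0.530 to 46.1 on prostate arrays. Of 9 tested renal markers, taken because other lines of the series come from kidney, 1 was apart and lower, but 0 with scaling to the median. That 1 is 11.1% of the list, against 2.31% of all genes. The summed level of the 14 renal markers on the array was 10.4 to 80.2 on squamous and 2.29 to 19.8 on prostate arrays. PAX2, SLC22A6 and HAVCR1 were above background nowhere. The part of such cells in the results was not tested.

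Both slides held lines of both sides. On slide 1, FaDu replicate 1 was set against PC3, DU145 and LNCap, and 326 of the 332 higher and 341 of the 361 lower genes kept their order. On slide 2, FaDu and SAS were set against PC3, and 331 and 360 kept it. The genes were chosen with these same arrays, so the counts are a description and no separate check. The KRT5 difference was 13.0 on slide 1 and 11.1 on slide 2, and that of ZNF215 -6.60 and -6.42. With the arrays as units, cell line as a random block and slide as a term, limma called 109 genes higher and 112 lower, and all 10 genes of the fit on line means were among them. That fit treats arrays of a line as samples and uses the same arrays, so the shared genes are no separate check. In the treated Cy5 channel of the same arrays, 200 of the 332 higher and 259 of the 361 lower genes were apart again. There the difference of KRT17 was 7.90, against 11.2 in the control channel, and that of KRT14 8.05 against 10.71.

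Background set the limits of both directions. Of the higher genes, 73 had no prostate array well above background, and 100 of the lower genes had no squamous array well above it. Over all 15659 genes tested, 137 had no prostate array and 1086 no squamous array well above background. A probe could pass the filter through 1 line, and LNCap had a single array. In bulk RNA of a line, fewer cells with a transcript and less of it per cell cannot be told apart. Well above background on all 14 arrays were 100 of the higher and 118 of the lower genes. Of the 156 apart genes with more than 1 tested probe, 8 had a probe that did not share the direction.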

How the data were processed

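The authors scanned the arrays and deposited 1 spot table for each, made with Feature Extraction software of Agilent (version 10.7.3.1 in the submitters' processing notes). The values used are the deposited intensity of the Cy3 channel per spot, already corrected by the authors' software for background and dye. The arrays hold 58717 non-control spots, none saturated among the 14 arrays used. Control spots and outlier flags (238 to 387 spots an array) were left out, each signal was taken as log2 minus the log2 of the array's 75th percentile, which was 473 to 969 intensity units, and spots of a probe were averaged. Of 42405 probes 28402 (67.0%) were matched to 20507 RefSeq genes by accession or name. The reference (GRCh38.p14) served for names and promoters only, and probe positions are those of the array annotation on hg19. A probe was tested where at least 0.5 of its spots were well above background on every array of at least 1 line, and the brightest tested probe stood for a gene.

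Arrays were averaged per line and the 2 squamous lines compared with the 3 prostate lines by limma 3.58.1 in R 4.3.3 with Benjamini-Hochberg adjustment over 15659 genes. The rest was computed in Python 3.11.15. Where a side had no array well above background, a fold is a lower bound on the scale of the deposited signal only. The dim side was set per array to the higher of its own value and the lowest level well above background. The comparison was computed on the Cy3 channel alone, with no loess, and is open to dye bias, since no dye swap was made. The number of lines, 2 against 3, limits the precision. Nothing in the labels says that arrays of a line came from separate cultures, so spreads over arrays may be technical.

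Named were TP63 and KRT5, KLK3, HOXB13, FOXA1, CDH1, VIM and EGFR, the 12 genes in each direction with the widest gap whose tested probes all differ in that direction, and up to 5 apart genes in each direction of each of 13 lists. Some genes that the rule names are not reported here. The lines, genes and lists were chosen with earlier results of these data known. Alternatives were the background correction, scaling, filters, probe choice, channel, control kind, slide, cell line as a block, and leaving out arrays or lines. The deposited log ratios, their p-values and the second array design were not used here. The labels call the control of PC3 replicate 1 and DU145 replicate 1 untreated, while the methods of the study name a vehicle for them.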

Additional observations from a re-analysis of the deposited data

How the results depend on the processing

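The limma counts depended on the processing more than the genes apart did. Limma called 9 genes higher and 1 lower in the report, and 0 and 0 after normexp background correction with quantile normalization, with only probes well above background on all 14 arrays, in the treated channel and with transfected controls only. At an unadjusted p under 0.05 limma gave 1250, 797, 1355 and 969 genes there. It called 13 and 2 with quantile normalization of the processed signal, 12 and 2 with no filter, 12 and 2 with values raised to the lowest level well above background, 9 and 0 with the mean over the tested probes of a gene, 4 and 1 with the slide effect subtracted, and 16 and 5 with lines weighted by their number of arrays. With the 14 arrays as units and cell line as a random block it called 108 and 94, and with slide as a further term 109 and 112, which treat arrays of a line as samples. The weighting and the raised values were chosen after seeing the data. Leaving out 1 array gave 0 to 19 higher and 0 to 4 lower. Without DU145 replicate 2 there were 0 and 0 (1279 genes at an unadjusted p under 0.05 by limma), without SAS replicate 2 there were 1 and 0, and without SAS replicate 3 there were 19 and 4. Without PC3 replicate 1 or 2, or FaDu replicate 1, 2 genes were called lower. Leaving out any of the 5 lines gave 0 and 0, with 795 to 1376 genes at an unadjusted p under 0.05. Fewer lines leave fewer degrees of freedom, and the cause of the other changes was not tested.

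The genes apart, 332 higher and 361 lower, were 160 and 99 after normexp, and 100 and 118 with only probes well above background on all arrays, a filter that leaves 10858 genes. All 332 and 361 kept their order of lines after normexp. A gap over 0 gave 1957 and 2276 and a gap of at least 2 gave 144 and 108. Of the genes apart, 47.9% were higher in the report, 61.8% after normexp and 56.0% with scaling to the median. That scaling moved the median difference of all genes from -0.06 to 0.09. Leaving out 1 array gave 310 to 351 higher and 303 to 447 lower, and leaving out 1 line, which leaves fewer lines to clear, 510 to 777 and 692 to 960. The 17 squamous markers were 9 after normexp, 11 in the treated channel, 3 of those above background everywhere, 15 to 17 under the other processing settings, and 14 to 17 without 1 array. The 28 zinc finger genes were 6 after normexp, 5 of those above background everywhere, and 22 to 32 under the other processing settings.

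Leaving out 1 array ended the gap of at least 1 for IFI6, EGFR, COL17A1, KRT18, CLDN1, EGF, WNT5A, OAS2, CD14 and STEAP1, and without FaDu replicate 1 the HOXD11 difference rose from 4.34 to 4.96. Over 59 named genes that were apart, none of 2017 values changed sign. Among the 4 that were not apart, FOXA1 turned to 0.048 within slide 1, and CDH1 to -0.14 without PC3. Leaving out arrays or lines, the difference ran from -0.14 to 2.34 for CDH1. No paired analysis was possible because the labels give these arrays no shared replicate numbers.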

Other observations

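The chromosomes differed in how many of their genes were apart, a description made after the values were seen. Of all genes tested, 2.12% were apart and higher and 2.31% apart and lower. Chromosome 21 had 15 of 185 tested genes apart and lower in the squamous lines (8.11%) and 0 higher, with a median difference of -0.64. Chromosome 18 had 9 of 210 lower (4.29%) and 3 higher (1.43%), with a median of -0.61. Chromosome 13 had 16 of 255 higher (6.27%) and 3 lower (1.18%), with a median of 0.52. Chromosome 19 had 48 of 1144 lower (4.20%) and 23 higher (2.01%), with a median of -0.39. The medians of the other chromosomes with at least 100 tested genes ran from -0.24 (chromosome 15) to 0.15 (chromosome 7).

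Among the 14003 probes that were matched to no RefSeq gene, 7256 were tested. By the same rule 89 of them (1.23%) were apart and higher and 142 (1.96%) apart and lower. The shares over the matched genes tested were 2.12% and 2.31%.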
